A study of Mus musculus with 24 samples.

Results

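Purinergic signaling uses extracellular nucleotides as messengers. ATP released from cells opens P2X channels and, with its breakdown products and UDP, activates G protein-coupled P2Y receptors. The ectonucleotidase CD39 (Entpd1) removes phosphates from ATP and ADP, CD73 (Nt5e) converts the resulting AMP to adenosine, and adenosine acts on the receptors encoded by Adora1, Adora2a, Adora2b and Adora3. In the lung this system is known for its part in inflammation and tissue repair, and CD73 is also widely used as a surface marker of mesenchymal cells. The present account covers 10 of these genes in mouse pulmonary fibroblasts: the P2X receptors P2rx4 and P2rx7, the P2Y receptors P2ry6, P2ry12 and P2ry14, the adenosine receptors Adora2a, Adora2b and Adora3, and the ectonucleotidases Entpd1 and Nt5e. They were taken by gene symbol from the 55291 gene names counted, and all 10 passed the filter on low counts that left 16258 genes for testing, Adora3 through the labelled TLR4-/- libraries: it failed the filter when only the WT libraries compared were in the fit.

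The cells came from the lungs of WT C57BL/6 mice or of mice labelled TLR4-/- on the same background, aged 4 to 8 weeks, and those of each group were taken from 3 to 4 lungs combined. After 3 to 6 passages and a night in low-serum medium they received PBS, rmCIRP (the recombinant mouse protein at 1 μg/ml), rmTGF-β1 (likewise recombinant, at 2 ng/ml) or both agents, and were collected 24 h later. CIRP is an RNA-binding protein that acts as a damage signal through TLR4 once outside the cell, and TGF-β1 is the main inducer of the myofibroblast state. The comparisons address whether rmCIRP changed these genes, whether TGF-β1 altered that response, and whether it differed in cells labelled TLR4-/-. Each of the 8 conditions had 3 libraries, 24 in all, made from total RNA.

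The libraries held 29853346 to 39664606 reads counted on genes. Nothing in the labels says that the 3 libraries of a condition came from separate animals or cultures. The paper describes the fibroblasts of each group as coming from pooled lungs. Its figure legends give 3 samples per group and 3 repeats of each for the sequencing, without defining a sample. The p-values therefore measure the spread between libraries, which may be technical. None of them, those between genotypes included, is shown to measure the spread between animals. Tlr4 itself was not lower in the libraries labelled TLR4-/- (903 ± 20.2 normalized counts, SD, n = 3, with PBS) than in WT libraries (759 ± 41.9), and counts per gene do not show whether reads lie outside a deleted part, so the genotype is called labelled throughout. All 7 fibroblast markers were present in every condition, and so were all 13 macrophage markers. The macrophage markers summed to 90430 to 98430 normalized counts in WT libraries with PBS and to 335600 to 385400 in the labelled TLR4-/- libraries. Xist, the RNA of the inactive X chromosome, had at most 3 normalized counts in any WT library and between 4328 and 6096 in the labelled TLR4-/- libraries. The Y-linked Ddx3y was present in both, with 3509 to 3708 in WT libraries with PBS and 2202 to 2395 in labelled TLR4-/- libraries with PBS, so both sex markers differed between the genotypes. The third labelled TLR4-/- library with both agents stood apart from the other 2 of its condition, with a chi-square per degree of freedom of 50.6 and 34.6 against 2.67 to 17.2 for all other replicate pairs.

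The 10 genes covered a wide range of levels. Expressed per length, as TPM (reads divided by exon length and scaled to the same total in every library, computed here), Nt5e (52.9 ± 7.10 TPM, SD, n = 3) and Adora2b (51.1 ± 5.34 TPM) led in WT cells with PBS, and these differed by less than their SDs. P2rx4 (20 ± 0.577 TPM) and P2ry6 (14.04 ± 2.86 TPM) came next, followed by P2rx7 at 7.44 ± 0.404 TPM, Adora2a at 4.95 ± 0.865 TPM, Entpd1 at 2.72 ± 0.278 TPM and P2ry14 at 2.19 ± 0.215 TPM. P2ry12 (0.771 ± 0.273 TPM) and Adora3 (0.178 ± 0.0952 TPM) were near the limit of detection, with 12 to 25 and 3 to 9 raw counts per library. After rmCIRP the order in WT cells changed at the top, with Adora2b at 97.4 ± 1.71 TPM and Nt5e at 28.0 ± 2.30 TPM. Adora2a, at 9.90 ± 0.833 TPM, stood beside P2ry6, at 10.9 ± 1.64 TPM, closer than the SD of P2ry6. In labelled TLR4-/- libraries with PBS, Adora2b (55.8 ± 4.32 TPM) was followed by P2ry6 (44.6 ± 1.39 TPM) and P2rx4 (34.9 ± 0.930 TPM), while Nt5e had 15.95 ± 1.92 TPM, less than its SD above P2rx7 at 15.2 ± 0.201 TPM.

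Promoter windows are shown for the pair that led in level and moved in opposite directions after rmCIRP, Adora2b and Nt5e, and for P2rx7, which fell with Nt5e. Each runs from 250 bases before to 50 bases after the RefSeq start site in build GRCm38.p6, on the plus strand, and capitals mark the GC box GGGCGG and the AP-1 motif TGANTCA on either strand. The windows lie at chr11:62248734-62249033 for Adora2b, chr9:88327359-88327658 for Nt5e and chr5:122643677-122643976 for the more upstream of 2 P2rx7 start sites.
Adora2b: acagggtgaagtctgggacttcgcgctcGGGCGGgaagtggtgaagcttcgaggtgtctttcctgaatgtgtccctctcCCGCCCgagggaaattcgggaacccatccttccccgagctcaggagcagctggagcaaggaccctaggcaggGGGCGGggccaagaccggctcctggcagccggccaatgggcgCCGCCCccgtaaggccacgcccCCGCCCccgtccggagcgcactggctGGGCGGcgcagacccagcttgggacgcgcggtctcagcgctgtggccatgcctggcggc
Nt5e: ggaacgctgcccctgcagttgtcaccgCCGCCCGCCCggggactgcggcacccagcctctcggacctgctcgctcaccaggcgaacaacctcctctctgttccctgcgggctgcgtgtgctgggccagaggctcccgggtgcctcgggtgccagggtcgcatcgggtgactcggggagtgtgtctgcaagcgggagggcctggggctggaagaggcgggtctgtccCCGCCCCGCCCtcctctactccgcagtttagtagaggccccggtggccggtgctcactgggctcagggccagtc
P2rx7: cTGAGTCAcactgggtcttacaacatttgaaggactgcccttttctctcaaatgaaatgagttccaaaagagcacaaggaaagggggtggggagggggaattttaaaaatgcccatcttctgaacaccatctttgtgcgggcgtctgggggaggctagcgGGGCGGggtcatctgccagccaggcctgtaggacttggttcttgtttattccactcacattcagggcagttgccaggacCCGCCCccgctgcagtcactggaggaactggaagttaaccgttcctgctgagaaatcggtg
The Adora2b window was 70% G and C and held 6 GC boxes, and the Nt5e window was 71% G and C and held 4, against 35.7% of 32851 mouse windows with at least 1. The P2rx7 window held 2 GC boxes and 1 AP-1 match, a motif found in 7.81% of all windows. AP-1 also matched in windows of P2ry14 and Adora3, which were not called with rmCIRP in WT, and a GC box matched in P2rx4. The other P2rx7 window and the Entpd1 windows held neither motif. The NF-κB motif (GGG, any 2 bases, then TTTCC), present in 1.63% of all windows, had no match in the 13 windows of the 8 members that the table holds (all but Adora2a and P2ry6). Of the other motifs searched, the hypoxia element ACGTG (19.6% of all windows) matched in P2ry12, and the CRE and SMAD motifs (1.79% and 0.213%) matched in none. A match or its absence describes these letters in these windows only.

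**Figure D1:**
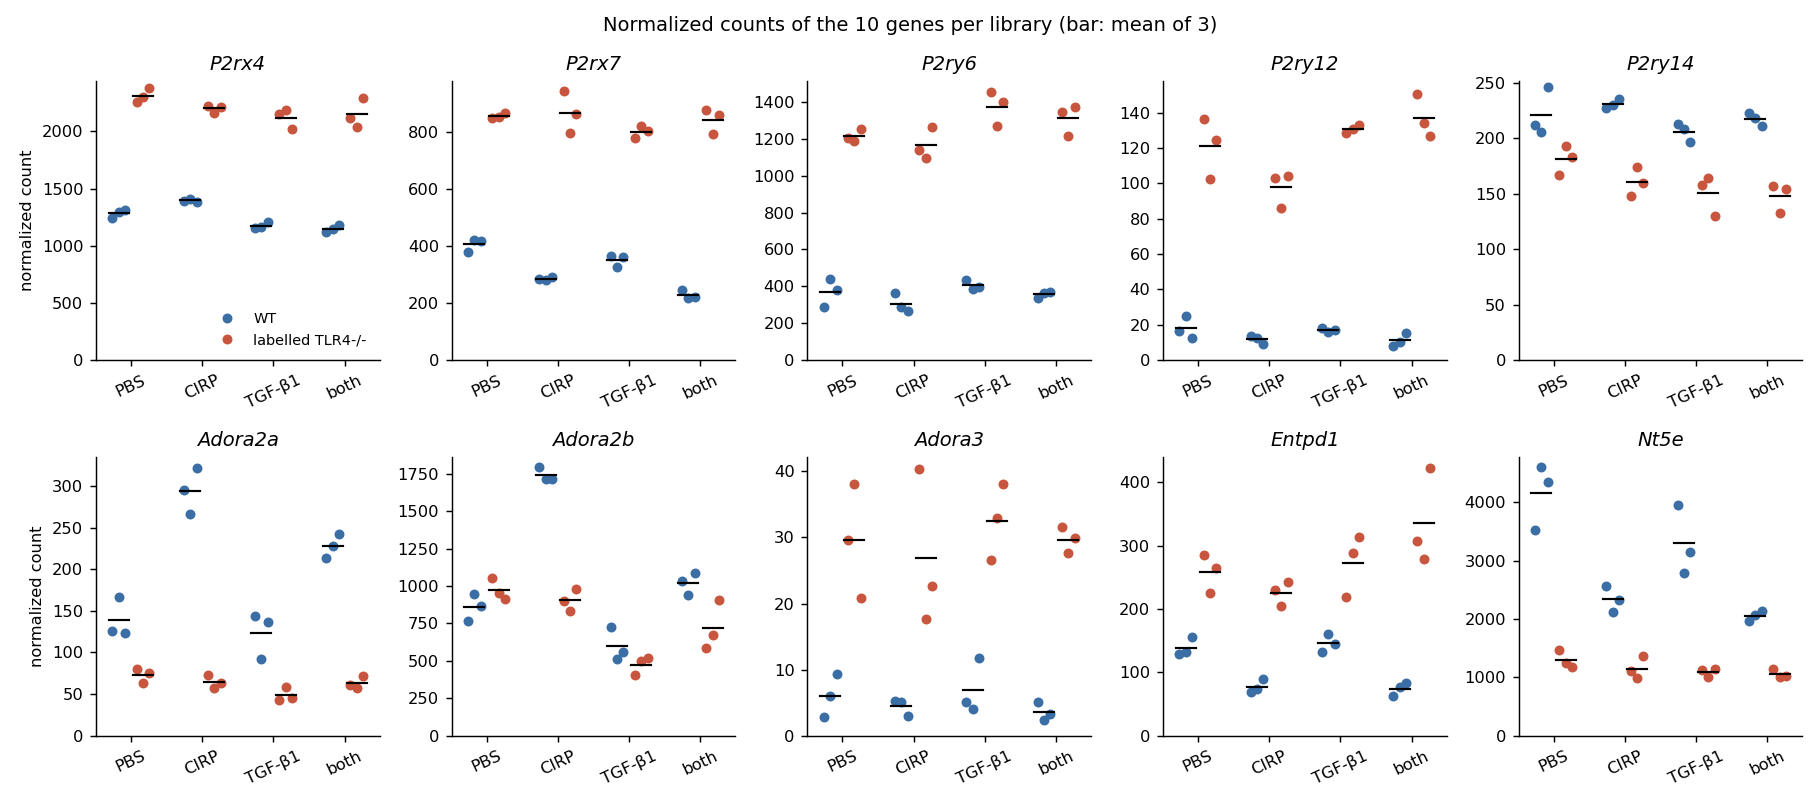
Normalized counts of the 10 genes (vertical axis from 0) in each of the 24 libraries by treatment (horizontal axis), WT in blue and labelled TLR4-/- in red, with a bar at the mean of 3 libraries. Adora2a and Adora2b rose with rmCIRP in WT libraries, where Adora2b reached 1717 to 1794, and Entpd1, Nt5e and P2rx7 fell. P2ry12 and Adora3 stayed below 26 and 12 in all WT libraries.

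In WT cells, rmCIRP raised the adenosine receptors Adora2a and Adora2b about as much, to 2.12 and 2.02 times the PBS level. The ectonucleotidases among the 10 genes fell, Entpd1 to 0.554 and Nt5e to 0.560 of that level. P2rx7 fell to 0.701 of the PBS level. Of the 10 genes 3 rose and 5 fell at an adjusted p under 0.1 (edgeR quasi-likelihood test, Benjamini-Hochberg over all genes tested), beside 19.8% of all genes tested that rose and 24.1% that fell. The median log2 fold change was -0.36 over the 10 genes and -0.02 over all genes tested.

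Adora2b, the low-affinity receptor that couples adenosine to cAMP, had 767, 950 and 868 normalized counts with PBS and 1794, 1717 and 1717 with rmCIRP. The groups were fully separate, with a log2 fold change of 1.01 ± 0.12 (SE, here and below, with adjusted p = 1.12e-06). Adora2a, the high-affinity receptor of the same coupling known for restraining inflammation, had 126, 167 and 123 with PBS and 295, 267 and 321 with rmCIRP. All 3 treated libraries lay above the controls, with a log2 fold change of 1.08 ± 0.14 (adjusted p = 1.78e-06). Adora3, whose exons share 779 of 3729 bases with Tmigd3 on the same strand and whose counts are therefore uncertain, had 2.89, 5.99 and 9.37 with PBS and 5.31, 5.14 and 2.96 with rmCIRP. These overlapped, and the interval of the log2 fold change, -1.67 to 0.81 at 95%, was too wide to show a change at this depth.

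Counting the A1 receptor Adora1 as well, the 4 adenosine receptors summed to 71.3 ± 6.70 TPM with PBS and 124.5 ± 1.47 TPM with rmCIRP in WT cells (SD, n = 3). Adora2b made up 71.6% ± 1.54 of this sum with PBS and 78.3% ± 0.955 with rmCIRP. The share of Adora1 was 21.2% ± 1.46 with PBS and 13.7% ± 0.312 with rmCIRP. Adora1 itself was called higher with rmCIRP (log2 fold change 0.25), without overlap. The share of Adora2a was 6.92% ± 0.678 and 7.96% ± 0.671, and that of Adora3 was at most 0.401% in any WT condition. With rmTGF-β1 the sum was 51.2 ± 8.24 TPM, and with both agents 76.0 ± 4.03 TPM.

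**Figure D2:**
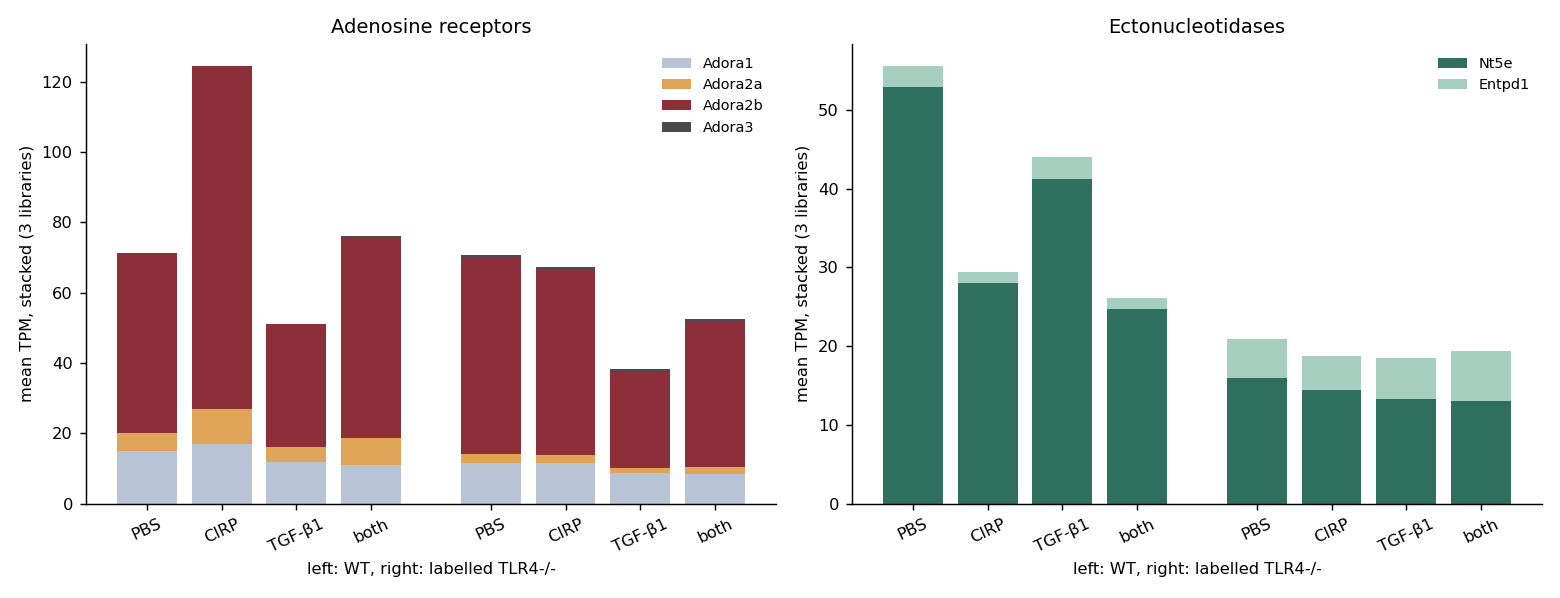
Mean TPM over 3 libraries, stacked, of the 4 adenosine receptors (left) and of Nt5e and Entpd1 (right), by treatment, with WT on the left and labelled TLR4-/- on the right of each panel. In WT cells the adenosine receptor stack reached 71.3 (PBS) and 124.5 (rmCIRP), most of it Adora2b, while Nt5e went from 52.9 to 28.0.

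The ectonucleotidases moved the other way. Nt5e had 3524, 4601 and 4351 normalized counts with PBS and 2563, 2113 and 2332 with rmCIRP, a log2 fold change of -0.84 ± 0.12 (adjusted p = 7.67e-06). Entpd1 had 129, 133 and 155 with PBS and 69.0, 73.1 and 88.9 with rmCIRP, a log2 fold change of -0.85 ± 0.18 (adjusted p = 0.000844). For both genes every treated library lay below every control.

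Among the nucleotide receptors the changes were smaller. P2rx7, the ATP-gated channel tied to inflammasome activation, had 380.2, 421 and 416 with PBS and 284, 279 and 292 with rmCIRP, without overlap (log2 fold change -0.51 ± 0.07, adjusted p = 4.06e-06). P2rx4, a channel with higher ATP affinity, had 1242, 1297 and 1314 with PBS and 1393, 1413 and 1382 with rmCIRP. The rise was small, 0.12 ± 0.04 on the log2 scale (adjusted p = 0.0381), and the adjusted p was 0.126 without the filter on low counts.

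P2ry6, a receptor for UDP, had 289.7, 440.3 and 382 with PBS and 361, 290.1 and 268 with rmCIRP. The libraries overlapped, and the log2 fold change of -0.28 ± 0.12 (adjusted p = 0.0674) did not hold without either of the last 2 PBS libraries or of the last 2 rmCIRP libraries, where it ranged from -0.26 to -0.13 with adjusted p of 0.154 to 0.444. P2ry12, the ADP receptor of platelets and microglia, had 16.4, 24.96 and 12.5 with PBS and 13.8, 12.3 and 8.89 with rmCIRP, also with overlap. Its log2 fold change of -0.63 ± 0.28 (adjusted p = 0.0953) was lost in 8 of 13 alternatives and fell in size to -0.31 (adjusted p = 0.542) without the second PBS library. It was also lost with DESeq2 (adjusted p = 0.154) and without the first PBS library (0.114), the second rmCIRP library (0.135) or the third (0.335). P2ry14, a receptor for UDP-glucose, had 212, 206 and 246 with PBS and 227, 229 and 235 with rmCIRP (log2 fold change 0.06, 95% interval -0.13 to 0.25). Its libraries overlapped.

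Macrophage markers moved in the same comparison: 8 of 13 fell and 5 rose, with log2 fold changes from -0.71 (Mrc1) to 2.26 (Fcgr1) and a median of -0.32. Their sum was 90430 to 98430 normalized counts with PBS and 80280 to 85460 with rmCIRP, and none was at 0. Lyz2 made up most of that sum, and without it the other markers summed to 16420 to 18320 with PBS and 19850 to 21590 with rmCIRP. Fibroblast markers moved as well: Col1a1, Col1a2, Col3a1 and Thy1 fell and Pdgfra and Dcn rose, 4 and 2 of 7, with a median log2 fold change of -0.35, and their sum went from 482400 to 522400 with PBS to 383900 to 421800 with rmCIRP. Fewer cells of a type and less RNA per cell cannot be told apart in bulk libraries, and the part of these marker shifts in the falls of P2rx7, P2ry6, P2ry12, Entpd1 and Nt5e was not tested.

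In labelled TLR4-/- libraries, none of the 10 genes was called after rmCIRP by edgeR or by DESeq2, beside 0% of all genes tested with edgeR (0 genes, with 0.104 as the smallest adjusted p and 1136 genes below 0.05 before adjustment). DESeq2 called 7 genes higher and 26 lower. P2ry12 was the only member with an unadjusted p under 0.05 (log2 fold change -0.31, adjusted p = 0.666, edgeR quasi-likelihood test), with 136, 103 and 124 normalized counts with PBS and 103, 86.3 and 104 with rmCIRP. Adora2b had 1051, 950.5 and 913 normalized counts with PBS and 899, 836 and 978 with rmCIRP. Adora2a had 80.0, 63.6 and 75.7 with PBS and 72.8, 57.5 and 62.9 with rmCIRP. Both pairs overlapped, and the 95% intervals of the log2 fold change were -0.36 to 0.17 for Adora2b and -0.56 to 0.20 for Adora2a. The intervals of Nt5e (-0.43 to 0.10), Entpd1 (-0.50 to 0.11) and P2rx7 (-0.10 to 0.15) did not reach the WT estimates.

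The difference between genotypes in the rmCIRP response, tested as a term of its own, passed the threshold for 6 members: 3 with a more positive response in the labelled TLR4-/- libraries, beside 17.1% of all genes tested, and 3 with a more negative one, beside 14.3%. The response of Adora2a was lower by 1.26 ± 0.23 on the log2 scale (log2 difference -1.26, adjusted p = 0.000296) and that of Adora2b by 1.11 ± 0.18 (log2 difference -1.11, adjusted p = 7.31e-05) than in WT. That of P2rx4 differed by -0.18 ± 0.06 (adjusted p = 0.0294). The responses of Nt5e (0.67 ± 0.17, adjusted p = 0.00669) and P2rx7 (0.54 ± 0.09, adjusted p = 0.000137) were less negative than in WT. For Entpd1 the difference was 0.66 ± 0.24 (adjusted p = 0.0452), and it was not called without the third PBS library of WT (adjusted p = 0.112) or without the first (0.108) or second (0.104) rmCIRP library of WT. P2ry6 (0.23 ± 0.15, adjusted p = 0.298), P2ry12, P2ry14 and Adora3 did not pass, but P2ry6 did without the first PBS library (0.36, adjusted p = 0.0558) or the first rmCIRP library (0.37, 0.0917) of WT. Macrophage markers differed in their rmCIRP response too, 6 of 13 upward and 5 downward, with a range from -2.22 to 0.69 on the log2 scale. Genotype and the levels of macrophage, endothelial and sex markers cannot be told apart in this contrast.

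**Figure D3:**
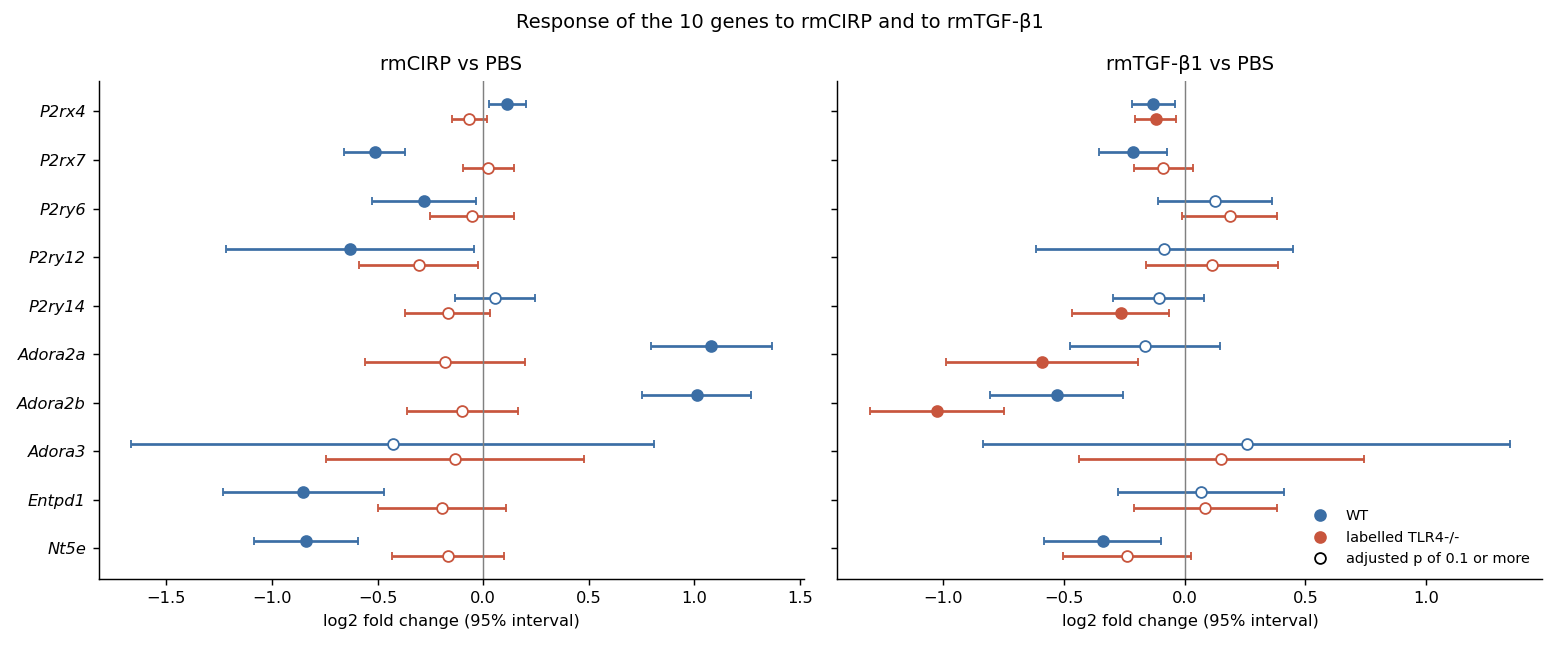
Log2 fold change with its 95% interval (horizontal axis) of each of the 10 genes for rmCIRP against PBS (left) and rmTGF-β1 against PBS (right), WT in blue and labelled TLR4-/- in red, filled where the adjusted p was under 0.1. With rmCIRP the WT points of Adora2a and Adora2b lie at 1.08 and 1.01 and their labelled TLR4-/- points at -0.18 and -0.10. With rmTGF-β1 the Adora2b points of both genotypes lie below 0, at -0.53 and -1.03.

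With rmTGF-β1 alone, no member rose and 4 fell in WT cells, beside 5.77% of all genes tested that rose and 6.65% that fell. This comparison shares its PBS libraries with that of rmCIRP. Adora2b had 729, 511 and 557 normalized counts, all below the PBS libraries (log2 fold change -0.53 ± 0.13, adjusted p = 0.0140). P2rx7 had 363, 327 and 362 (-0.21 ± 0.07, adjusted p = 0.0503) and P2rx4 had 1152, 1168 and 1209 (-0.13 ± 0.04, adjusted p = 0.0642), also with no overlap. Nt5e had 3958, 2794 and 3141, overlapping its controls (-0.34 ± 0.12, adjusted p = 0.0755). Only Adora2b was still called without either of the last 2 PBS libraries or the second rmTGF-β1 library, so the number that fell dropped to 1 there. Over all genes tested, those fits called 655, 655 and 546 lower, against 1081 in the main fit. Without the first rmTGF-β1 library P2rx4 was not called (adjusted p = 0.1595), and without the third Nt5e was not (0.204). P2rx4 was also not called by DESeq2 (0.103), nor P2rx4 (0.409) and P2rx7 (0.191) without the filter on low counts. No macrophage marker rose and 1 of 13 fell, with log2 fold changes from -0.27 to -0.04.

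The same agent in labelled TLR4-/- libraries also lowered 4 members and raised none, beside 11.7% of all genes tested that fell and 12.1% that rose. Adora2b had 407, 500 and 518 normalized counts, below all 3 PBS libraries (log2 fold change -1.03 ± 0.13, adjusted p = 1.21e-05). Adora2a, with 42.6, 58.5 and 45.2, lay below its controls as well (-0.59 ± 0.19, adjusted p = 0.0368). P2rx4 had 2153, 2187 and 2017 (-0.12 ± 0.04, adjusted p = 0.0461), and P2ry14 had 158, 164 and 129 (-0.26 ± 0.10, adjusted p = 0.0636), neither overlapping. Without the third rmTGF-β1 library only Adora2b was called, beside 1195 of all genes tested called lower and 1322 higher. Without the third PBS library P2rx4 (adjusted p = 0.156) and P2ry14 (0.139) were lost. Adora2a was lost without the first PBS library (0.124) or the first rmTGF-β1 library (0.126), and P2ry14 without the second PBS library (0.214). P2rx4 and P2ry14 were also not called without the filter on low counts (0.1 and 0.1255) or with only the libraries compared in the fit (0.104 and 0.163). Both of these fits called P2ry6 higher (0.0824 and 0.0542) and Nt5e lower (0.000125 and 0.0815). One macrophage marker fell and none rose, with log2 fold changes from -0.43 to 0.14.

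The genotypes were also set against each other in this response. No member passed by edgeR or DESeq2, beside 0.0861% of all genes tested in either direction by edgeR. With edgeR 1 member, Adora2b, had an unadjusted p under 0.05 (log2 difference -0.50, 95% interval -0.89 to -0.11, adjusted p = 0.338), beside 1686 of all genes. The calls in one genotype and not the other, such as that of Adora2a, are therefore not shown to differ. Without the filter on low counts the Adora2b difference was called (-0.53, adjusted p = 8.72e-06).

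When rmCIRP was added to rmTGF-β1 in WT cells, 2 members rose and 3 fell against rmTGF-β1 alone, beside 20.5% and 21.7% of all genes tested. Adora2a went from 143, 92.0 and 136 normalized counts to 213, 228 and 243 (log2 fold change 0.87 ± 0.14, adjusted p = 5.24e-05). Adora2b went to 1030, 940.1 and 1085 (0.76 ± 0.13, adjusted p = 9.05e-05). The 3 that fell were again P2rx7 to 244, 216 and 219 (-0.63 ± 0.07, adjusted p = 4.67e-07), Entpd1 from 132, 160.0 and 145 to 63.2, 76.6 and 83.1 (-0.98 ± 0.19, adjusted p = 0.000245), and Nt5e to 1969, 2062 and 2141 (-0.68 ± 0.12, adjusted p = 0.000111). None of these 5 genes had overlapping libraries, and the share of all genes tested without overlap was not counted. P2ry6 (-0.19 ± 0.12, adjusted p = 0.22) and P2ry12 (-0.59 ± 0.29, adjusted p = 0.1355) were also below without overlap but were not called. P2ry6 was called lower without the filter on low counts (0.0912) and with only the libraries compared in the fit (0.0515). P2ry12 was called lower without the third library with both agents (0.0651). Of the macrophage markers 5 of 13 rose and 5 fell, with a median log2 fold change of -0.16.

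Against rmCIRP alone, the combination lowered 4 members and raised none, beside 10.5% of all genes tested that fell and 10% that rose. Adora2b was lower by 0.78 ± 0.12 on the log2 scale (log2 fold change -0.78, adjusted p = 0.000115), so that its level with both agents, 1030, 940.1 and 1085, lay between those with rmCIRP and with rmTGF-β1 alone. P2rx4 (log2 fold change -0.29 ± 0.04, adjusted p = 6.55e-05) and P2rx7 (-0.34 ± 0.08, adjusted p = 0.00340) fell as well. Adora2a had a log2 fold change of -0.37 ± 0.13 (adjusted p = 0.0579), which was not called without the first or the third rmCIRP library or the first or second library with both agents (adjusted p of 0.113 to 0.230). No macrophage marker fell and 1 of 13 rose. The interaction of the 2 agents in WT cells was called for no member by edgeR or DESeq2, beside 0.0492% of all genes tested in either direction by edgeR. With edgeR P2rx4 alone had an unadjusted p under 0.05 (log2 difference -0.16, adjusted p = 0.794), beside 917 of all genes. The 95% interval for Adora2b was -0.62 to 0.13 and for Nt5e -0.20 to 0.50.

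In labelled TLR4-/- libraries, adding rmCIRP to rmTGF-β1 was followed by 1 call, a rise of Adora2b to 583, 669 and 904 normalized counts (log2 fold change 0.59 ± 0.14, adjusted p = 0.0703), beside 1.56% of all genes tested that rose and 1.13% that fell. The groups did not overlap, but the highest value belonged to the library that stood apart. Without that library the log2 fold change was 0.40 (adjusted p = 0.324), and the call was also lost without the first (0.369) or second (0.117) rmTGF-β1 library. Entpd1 had 308, 279 and 422 against 219, 288 and 313, with the highest value in the same library (0.29 ± 0.14, adjusted p = 0.279). Of the macrophage markers none was called.

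**Figure D4:**
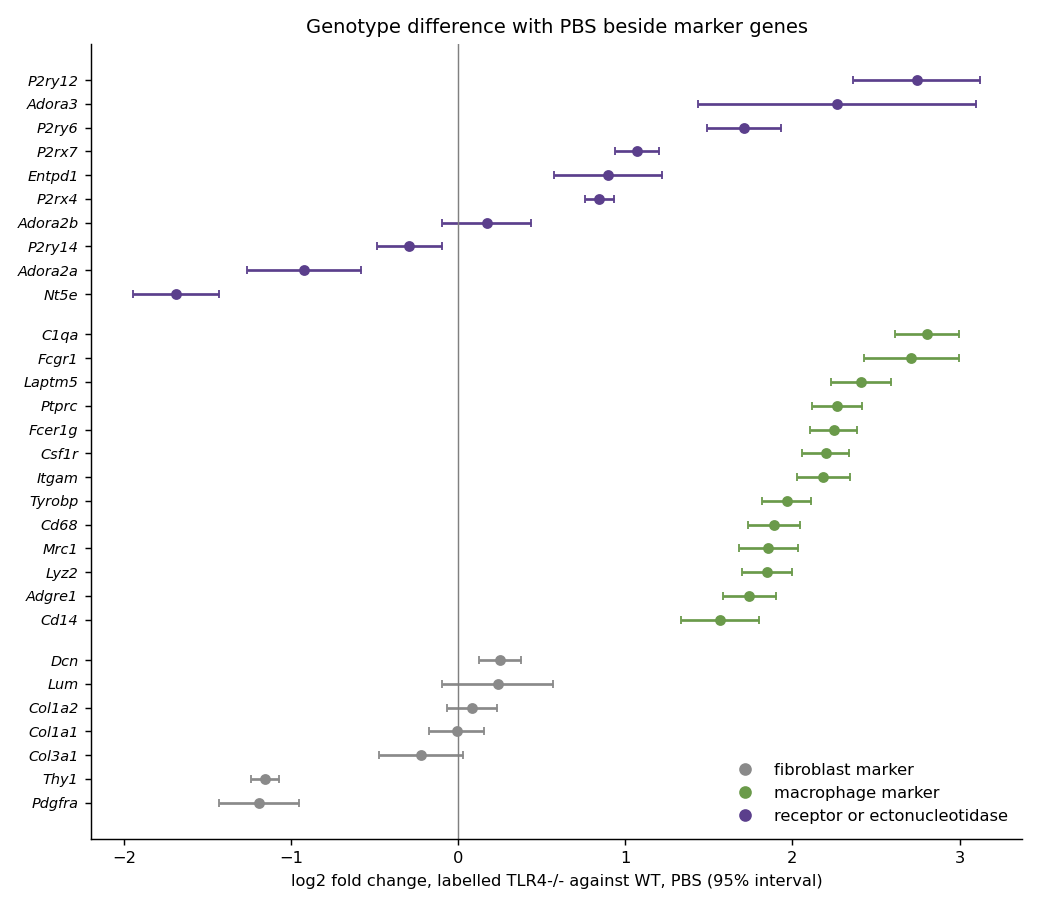
Log2 fold change with its 95% interval (horizontal axis) between labelled TLR4-/- and WT libraries with PBS, for the 10 genes (purple), 13 macrophage markers (green) and 7 fibroblast markers (grey). The macrophage markers lie between 1.56 and 2.81. Leaving aside Adora3, P2ry12 and P2ry6 lie highest among the 10 genes, at 2.74 and 1.71, and Nt5e lowest, at -1.69. The Adora3 point is drawn but not read as a result, because the higher group kept that gene in the filter.

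The largest log2 fold change of a member in the 11 comparisons, that of P2ry12, was between the genotypes with PBS. Leaving aside Adora3, 5 members were higher and 3 lower in labelled TLR4-/- libraries, beside 23.2% and 24% of all genes tested. P2ry12 had 136, 103 and 124 normalized counts against 16.4, 24.96 and 12.5 in WT (log2 fold change 2.74 ± 0.18, adjusted p = 2.40e-11), and P2ry6 had 1203, 1187 and 1252 against 289.7, 440.3 and 382 (1.71 ± 0.11, adjusted p = 6.19e-12). P2rx7 was higher by 1.07 ± 0.06 (adjusted p = 2.46e-12), P2rx4 by 0.85 ± 0.04 (1.30e-13) and Entpd1 by 0.89 ± 0.16 (6.83e-05). Adora3 had 29.6, 38.1 and 20.9 against 2.89, 5.99 and 9.37, given without a test because it was kept by the filter through the higher group, and within the limit set by the exons it shares with Tmigd3.

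Lower in the labelled TLR4-/- libraries was Nt5e, with 1462, 1250 and 1171 against 3524, 4601 and 4351 normalized counts in WT (log2 fold change -1.69 ± 0.12, adjusted p = 1.29e-10). Adora2a (-0.92 ± 0.16, adjusted p = 8.66e-05) and P2ry14 (-0.29 ± 0.09, adjusted p = 0.0157) were also lower. None of these 8 genes had overlapping libraries, but how often that held over all genes tested was not counted. Adora2b did overlap, at 1051, 950.5 and 913 against 767, 950 and 868 (0.17, 95% interval -0.09 to 0.44), and it was called higher without the filter on low counts (0.18, adjusted p = 0.0288) or with only the libraries compared in the fit (0.19, 0.0629). All 13 macrophage markers were higher, by 1.56 to 2.81 on the log2 scale with a median of 2.19, while of 7 fibroblast markers 1 was higher and 2, Pdgfra and Thy1, were lower. Of 5 endothelial markers 4 were lower and none higher, and they summed to 302 to 387 normalized counts against 639 to 933.5 in WT. Genotype and the levels of macrophage, endothelial and sex markers cannot be told apart here.

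The other genes of the pathway were taken from a list of 32, of which 24 were tested. With rmCIRP in WT cells 9 rose and 5 fell, beside 19.8% and 24.1% of all genes tested, and the median log2 fold change was 0.04 against -0.02 over all genes tested. Acpp, an ecto-phosphatase that can form adenosine from AMP, went from 35.6, 21.96 and 35.4 normalized counts to 577, 508 and 529 (log2 fold change 4.11 ± 0.19, adjusted p = 1.22e-13). The NAD-consuming ectoenzyme Cd38 went from 323, 403 and 377 to 1339, 1339 and 1323 (1.85 ± 0.07, adjusted p = 1.48e-15), and the nucleoside transporter Slc28a2 from 19.3, 20.97 and 21.9 to 104, 83.3 and 99.8 (2.20 ± 0.19, adjusted p = 3.22e-09). Adenosine-removing enzymes fell slightly, with log2 fold changes of -0.32 ± 0.11 for adenosine deaminase (Ada, adjusted p = 0.0287) and -0.30 ± 0.05 for adenosine kinase (Adk, 3.74e-05). The channel P2rx5 fell too (-0.70 ± 0.20, 0.00874). For each of these 6 genes the libraries did not overlap, which was not counted over all genes tested. Ada was not called without the third rmCIRP library (adjusted p = 0.109).

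No gene of the list was called with rmCIRP in labelled TLR4-/- libraries by edgeR, where 2 of 24 had an unadjusted p under 0.05. The difference between genotypes in the rmCIRP response passed for 12 of the 24, downward for 9 and upward for 3, beside 14.3% and 17.1% of all genes tested. It was -4.42 ± 0.41 for Acpp, -2.08 ± 0.24 for Slc28a2 and -1.95 ± 0.09 for Cd38, and 0.80 ± 0.29 for P2rx5, 0.45 ± 0.16 for Ada and 0.27 ± 0.07 for Adk (adjusted p from 8.00e-13 to 0.0465). Without the third WT rmCIRP library P2rx5 (0.135) and Ada (0.112) were not called, nor was P2rx5 without the third WT PBS library (0.101).

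With rmTGF-β1 in WT cells 3 of the 24 rose and 1 fell, beside 5.77% and 6.65% of all genes tested. The vesicular nucleotide transporter Slc17a9 rose by 0.43 ± 0.13 (adjusted p = 0.0396), the nucleotide pyrophosphatase Enpp1 by 0.42 ± 0.06 (8.20e-05) and Ada by 0.36 ± 0.11 (0.0432), while Adora1 changed by -0.35 ± 0.08 (0.00624). Ada was lost without the first or the third PBS library or the second or the third rmTGF-β1 library (adjusted p of 0.102 to 0.134), and Slc17a9 without the second PBS library or the first or the third rmTGF-β1 library (0.123 to 0.1365). In labelled TLR4-/- libraries 4 rose and 5 fell, beside 12.1% and 11.7%, among them Ada (0.53 ± 0.11, adjusted p = 0.00151), the hemichannel gene Gja1 (0.50 ± 0.14, 0.0176) and Enpp1 (0.42 ± 0.06, 1.30e-05) upward. Slc28a2 (-0.51 ± 0.16, adjusted p = 0.0313), Adora1 (-0.40 ± 0.08, 0.00121) and Cd38 (-0.38 ± 0.06, 0.000229) went downward. Gja1 (0.129) and Slc28a2 (0.179) were not called without the third rmTGF-β1 library. For both agents against rmTGF-β1 the counts were 9 up and 4 down in WT, beside 20.5% and 21.7% of all genes tested, where the log2 fold change was 4.93 ± 0.19 for Acpp (adjusted p = 4.14e-15), 2.28 ± 0.20 for Slc28a2 (6.61e-09) and 2.17 ± 0.07 for Cd38 (8.33e-17). The labelled TLR4-/- libraries had 1 up and 2 down, Ada (-0.47 ± 0.11, adjusted p = 0.0690) and Slc17a9 (-0.42 ± 0.11, 0.0897), beside 1.56% and 1.13%. All 3 calls were lost without the library that stood apart, where Ada had -0.31 (adjusted p = 0.269) and Slc17a9 -0.25 (0.445), without the first rmTGF-β1 library and with only the libraries compared. Without the second rmTGF-β1 library Slc17a9 (0.2696) and the gene that rose were also not called. For both agents against rmCIRP in WT, 4 were up and 2 down, beside 10% and 10.5% of all genes tested, with Acpp at 0.61 ± 0.13 (adjusted p = 0.00199) and Adora1 at -0.64 ± 0.08 (4.50e-06).

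With PBS, 11 of the 24 were higher and 6 lower in the labelled TLR4-/- libraries, beside 23.2% and 24% of all genes tested. The largest among those averaging 50 normalized counts or more over all 24 libraries were the ADP receptor P2ry13 (2.18 ± 0.25, adjusted p = 2.65e-07), Slc28a2 (1.91 ± 0.19, 2.99e-08) and the ectoenzyme Bst1 (1.37 ± 0.08, 8.49e-13). A gene can reach that average through the conditions where it is high, and Slc28a2 was below 50 in every WT library with PBS. The ecto-phosphatase Alpl (-2.54 ± 0.27, 7.73e-08), P2rx5 (-0.54 ± 0.20, 0.0338) and Adora1 (-0.35 ± 0.08, 0.000861) were lower, P2rx5 not without the first or the third WT PBS library (0.102 and 0.108) or the first labelled TLR4-/- one (0.1045). The macrophage marker values above stand beside these as well.

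**Figure D5:**
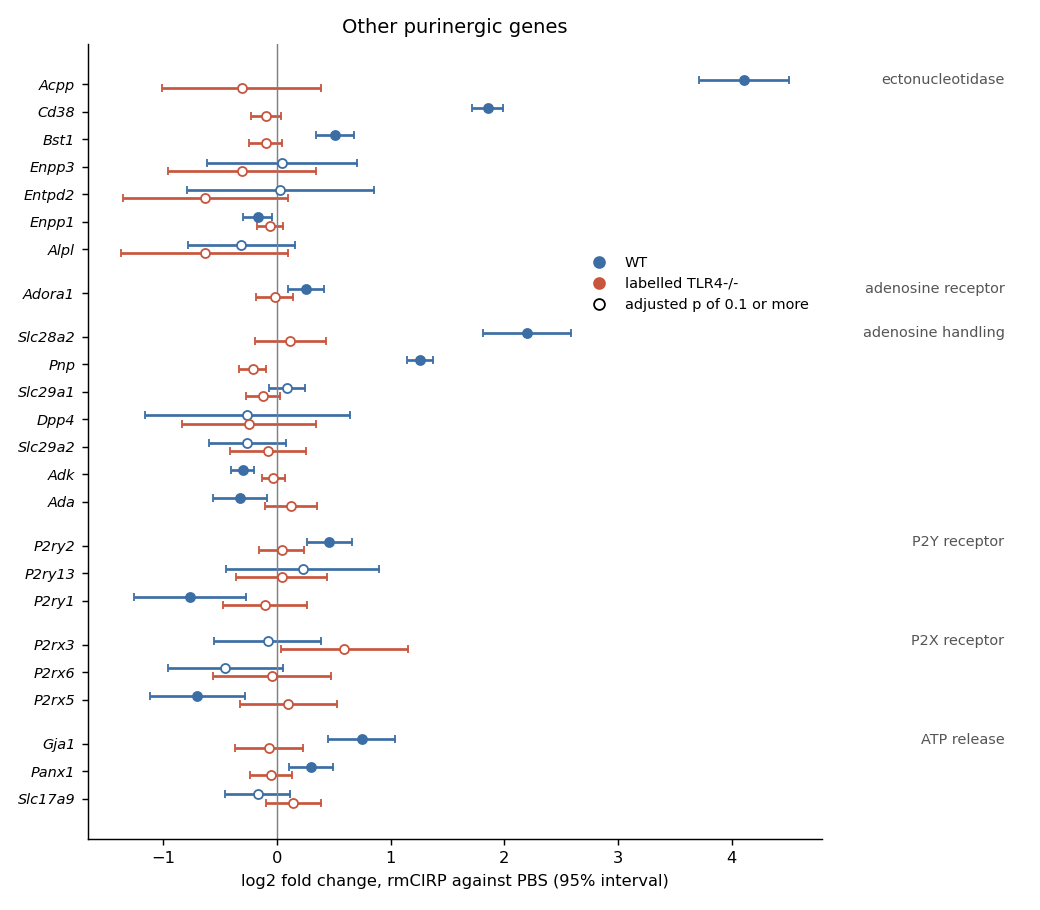
Log2 fold change with its 95% interval (horizontal axis) for rmCIRP against PBS of the 24 tested pathway genes, grouped by role, WT in blue and labelled TLR4-/- in red, filled where the adjusted p was under 0.1. Acpp, Slc28a2 and Cd38 lie farthest right in WT, at 4.11, 2.20 and 1.85, and no labelled TLR4-/- point is filled. Acpp and Slc28a2 were below 50 normalized counts in every WT library with PBS.

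The genes whose log2 normalized counts followed a member most closely over all 24 libraries were also listed. Among the 12311 genes searched (mean of 50 normalized counts or more), Thy1 and Limch1 were closest to Nt5e (Pearson r = 0.98 and 0.99). Cyp7b1 and Foxf1 were closest to Adora2a (0.98 and 0.97), and Acvr1b and Arhgap6 to Adora2b (0.96 and 0.95). For P2ry6 they were Trem1 and Cd37 (both 0.99), and for P2rx7 Gda and Tnfaip8l2 (1.00 and 0.99). P2rx4 was followed by Rbm47 and Prkcb (both 0.99), Entpd1 by Gpr137b and Cebpa (both 0.97) and P2ry14 by Mstn and Matn2 (both 0.93). The points share 2 genotypes and 4 treatments, and these values are a description with no test.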

How the data were processed

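Pulmonary fibroblast RNA was prepared by the authors with a stranded total RNA kit and sequenced on a NextSeq 550. STAR2 alignment used the mouse GENCODE reference, and reads were counted with ht-seq. The deposited files hold these raw counts per gene symbol, with no normalization. The submitters' processing notes name build NCBIM37, and the annotation release and strand option are not given in the sources used here. The 5 tally lines (14.5% to 16.1% of reads) were left out.

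Libraries were grouped by their labels. In R 4.3.3, edgeR 4.0.16 was used with filterByExpr, TMM and 1 mean for each of 8 conditions over 24 libraries (glmQLFit, 16 residual degrees of freedom), and the quasi-likelihood F-test was applied to 11 comparisons, with Benjamini-Hochberg adjustment over 16258 genes and a threshold of 0.1, the cut-off of the study. The test was tried on simulated counts first. Each standard error is the size of the log2 fold change over the root of its F. Normalized counts are counts divided by DESeq2 1.42.0 size factors, used for levels. TPM used exon lengths of GENCODE M21, which matched 96.4% of symbols. P2ry12 shares 9 exon bases with Med12l on the opposite strand.

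The members and gene lists were chosen with earlier results of these data known. Every member was named. Of the pathway list, called genes averaging 50 normalized counts or more over all 24 libraries were eligible for naming, at most 3 per direction and comparison. This average can be reached through the conditions where a gene is high, as by Acpp and Slc28a2, both below 50 in WT libraries with PBS. The 2 genes most like a member may also be named, and Adora1 was also read within the adenosine receptor sum. Markers of endothelial, epithelial, lymphoid, neutrophil, mast and dendritic cells were also read, and no such gene had over 417 raw counts in any library (S100a9 and Fcer1a were at 0 in all). Alternatives were DESeq2, RLE factors, other filters on low counts, only the libraries compared, a replicate block and leaving out each library, and, chosen after seeing the data, a fit without the library that stood apart.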

Additional observations from a re-analysis of the deposited data

Results flagged for a closer look

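The response to rmCIRP differed between WT and labelled TLR4-/- libraries, by the test of the difference itself (edgeR quasi-likelihood test, adjusted p under 0.1), for 6 of the 10 genes, beside 31.4% of all genes tested. The log2 difference, labelled TLR4-/- minus WT, was -1.26 for Adora2a, -1.11 for Adora2b and -0.18 for P2rx4. It was 0.67 for Nt5e, 0.66 for Entpd1 and 0.54 for P2rx7. Among the pathway genes it was -4.42 for Acpp, -2.08 for Slc28a2, -1.95 for Cd38, 0.80 for P2rx5, 0.45 for Ada and 0.27 for Adk. The genotypes also differed with PBS in macrophage markers (13 of 13 higher), in endothelial markers (4 of 5 lower) and in the sex markers Xist and Ddx3y. These cannot be told apart from genotype. Dixon's test for an outlying value was not run on 3 libraries per condition.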

How the results depend on the processing

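Of 1600 log2 fold changes of the 10 genes recomputed under alternatives, 1531 kept their direction and side of the threshold, 52 were no longer called, 17 became called, none that was called changed sign, and 62 that were not called did. The rises of Adora2a and Adora2b and the falls of P2rx7, Entpd1 and Nt5e with rmCIRP in WT held in all 13 alternatives. In WT, edgeR without a filter on low counts did not call P2rx4 (adjusted p = 0.126) or P2ry12 (0.215) with rmCIRP. Without a filter on low counts, the number of members lower with rmTGF-β1 in WT was 2, beside 1023 of all 34285 genes tested. The number higher was 1 for both agents against rmCIRP in WT (1594 of all genes). In labelled TLR4-/- libraries it was 1 for rmTGF-β1 (1515 of all genes) and 2 for both agents against rmTGF-β1 (915). In the genotype difference for rmTGF-β1, 1 member was lower (347 of all genes). With only the libraries compared, 3 members fell with rmCIRP in WT (3663 of all genes). In labelled TLR4-/- libraries 1 rose with rmTGF-β1 (1581 of all genes) and 0 rose with both agents against rmTGF-β1 (0 of all genes). The last was also 0 without the library that stood apart, an alternative chosen after seeing the data. The cause was not tested.

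Leaving out 1 library at a time, members lower ranged from 3 to 5 for rmCIRP in WT, from 1 to 4 for rmTGF-β1 in WT and from 1 to 4 for rmTGF-β1 in labelled TLR4-/- libraries. Over all genes tested, the same fits called 3035 to 3649, 546 to 956 and 1195 to 1816 lower, against 3918, 1081 and 1909 in the main fit. Members lower ranged from 3 to 4 in WT for both agents against rmTGF-β1 and for both against rmCIRP, beside 2985 to 3290 and 1085 to 1402 of all genes. Members higher ranged from 0 to 1 for both agents against rmCIRP in WT, beside 1162 to 1494 of all genes. In labelled TLR4-/- libraries they ranged from 0 to 1 for both agents against rmTGF-β1, beside 0 to 1504. For the genotype difference in the rmCIRP response, members higher ranged from 2 to 4, beside 2008 to 2672 of all genes. The second WT PBS library took part in the low ends of the WT ranges of members lower with rmCIRP and with rmTGF-β1, each against PBS.

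Replicate numbers did not pair the libraries (correlation of deviations 0.012 on average, -0.117 to 0.369 over 84 same-numbered pairs). With the replicate number as a block, 3 members rose and 5 fell with rmCIRP in WT, beside 3229 and 3926 of all genes. No other count of members changed either. Over all genes tested, the block moved calls for both agents against rmTGF-β1 in labelled TLR4-/- libraries from 254 to 473 higher and from 183 to 337 lower. DESeq2 called 549 and 353 there, and the fit without a filter 915 and 665. The same comparison had 0 and 0 calls with only the libraries compared, 1 and 0 without the library that stood apart, and from 0 and 0 (without the first rmTGF-β1 library) to 1504 and 1170 (without the first library with both agents) when 1 library was left out. For the genotype difference in the rmTGF-β1 response DESeq2 called 71 higher and 92 lower (edgeR 6 and 8). For the interaction in WT it called 23 and 14 (edgeR 6 and 2). The library that stood apart enters the spread estimate shared by all comparisons. Without it edgeR called 101 and 78 for that genotype difference and 15 and 8 for the interaction, with no member among them. Depth limits P2ry12 and Adora3, with at most 25 raw counts in WT libraries.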

Other observations

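The labelled TLR4-/- library that stood apart, the third with both agents, also had the lowest P2rx5 of its condition, at 33.99 normalized counts against 83.8 and 57.8, and the lowest Ada, at 455 against 713 and 637. The 5 endothelial markers summed to 320 to 784 normalized counts over the 3 libraries of that condition and to 302 to 387 in the labelled TLR4-/- libraries with PBS. Enpp1, which hydrolyses ATP, had 502, 563 and 567 normalized counts in WT with PBS and 772, 683 and 734 with rmTGF-β1, and 975, 941 and 953 against 1265, 1207 and 1346 in labelled TLR4-/- libraries, without overlap in either genotype.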
